A study of Homo sapiens with 4 samples.

Results

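The genes described here encode proteins of the U5 small nuclear ribonucleoprotein (snRNP) and of the U4/U6.U5 tri-snRNP, the large preassembled particle that joins the spliceosome. Members were taken by gene name, whatever their values, from a list made with earlier results of these data known. The names were EFTUD2, PRPF8, SNRNP200, PRPF6, PRPF31, PRPF3, PRPF4, SNRNP40, DDX23 and TXNL4A. Of these 10 genes, 8 had listed introns, 141 in all, out of 142206 introns of 15902 genes. PRPF8 and PRPF31 were not analysed here. The cells were SUM159, an established human triple-negative breast cancer line. They were given H3B-8800, an inhibitor of the spliceosome, or its vehicle DMSO, for 12 hours, and polyA RNA of the cytoplasmic fraction was sequenced. Each group had 2 libraries, described as biological duplicates, so each test sets 2 libraries against 2 and covers 1 cell line. For each intron the files gave intronic reads, which lie in the intron, and a second count, whose excess over the intronic reads was taken as spliced reads, which span the intron. With 2 libraries against 2 the smallest two-sided exact permutation p is 0.333, so tests came from edgeR's quasi-likelihood models fitted over all genes or introns, with Benjamini-Hochberg adjustment and a threshold of 0.05.

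In the tri-snRNP, the U4 and U6 RNAs are paired with each other and held beside U5, which carries the catalytic proteins. After the branch site has been recognised by the U2 snRNP with its SF3b proteins, the site of action of H3B-8800, the tri-snRNP joins and is rearranged so that U6 can form the active site. DDX23, the helicase called Prp28 in yeast, exchanges U1 for U6 at the 5′ splice site. SNRNP200, called Brr2 in yeast, is the helicase that unwinds U4 from U6, and EFTUD2, called Snu114 in yeast, is a GTPase that regulates it. PRPF6 bridges U5 and U4/U6, PRPF3 and PRPF4 sit on the U4/U6 duplex, SNRNP40 is a WD-repeat protein of U5, and TXNL4A is a small thioredoxin-fold protein of U5.

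The 3′ ends of member introns are shown first, because intronic reads of the same gene differed from intron to intron. Each line gives the last 60 bases of an intron, 5′ to 3′ on the transcribed strand, read from GENCODE 29 transcripts that retain the intron or begin in it (GRCh38, the hg38 build). Introns are numbered along the GENCODE transcript. Capitals mark the terminal AG and every CTNA, the core letters of a branch site, found on the transcribed strand between 45 and 18 bases before the intron's end. The first 4 introns gained intronic reads relative to spliced reads with H3B-8800, the next 4 had no intronic read in any library, and the last did not pass the ratio test. All 9 lie on the minus strand, at chr17:44853636-44853695, chr17:44862907-44862966, chr2:96284586-96284645, chr12:48834498-48834557, chr17:44881723-44881782, chr17:44865066-44865125, chr17:44860046-44860105, chr17:44859182-44859241 and chr1:31281497-31281556.
EFTUD2 intron 22: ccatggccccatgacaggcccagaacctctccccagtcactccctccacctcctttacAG
EFTUD2 intron 14: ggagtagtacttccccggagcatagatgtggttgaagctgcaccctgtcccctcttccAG
SNRNP200 intron 30: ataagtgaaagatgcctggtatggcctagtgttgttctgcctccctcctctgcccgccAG
DDX23 intron 11: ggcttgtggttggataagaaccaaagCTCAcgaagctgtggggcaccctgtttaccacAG
EFTUD2 intron 5: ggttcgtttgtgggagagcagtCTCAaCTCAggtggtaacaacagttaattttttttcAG
EFTUD2 intron 12: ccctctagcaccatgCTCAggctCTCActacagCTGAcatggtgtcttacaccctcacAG
EFTUD2 intron 16: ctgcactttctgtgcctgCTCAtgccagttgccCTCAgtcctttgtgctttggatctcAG
EFTUD2 intron 17: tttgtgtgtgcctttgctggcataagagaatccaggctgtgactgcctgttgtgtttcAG
SNRNP40 intron 4: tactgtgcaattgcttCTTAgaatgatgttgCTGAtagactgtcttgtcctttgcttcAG
A CTNA was present in 1 of the 4 readable introns whose ratio rose, and in 3 of the 3 that were tested and did not pass. It was present in 4 of the 5 readable introns without any intronic read, and in 13 of all 29 readable member introns. The same window held one in 50.6% of 16418 readable introns of all genes. The share of C or T in the 20 bases before the AG was 85% in EFTUD2 introns 22 and 14 and in SNRNP200 intron 30, 60% in DDX23 intron 11, and 65% to 75% in the 4 EFTUD2 introns without intronic reads. It was 85% in SNRNP200 intron 40, the other readable intron without intronic reads, and its median over the readable introns of all genes was 75%. These matches describe the letters in the window only, and the classes were not compared by a test. Of the 8 introns whose ratio passed upwards, 4 could be read. A readable 3′ end lies in an annotated exon, so intronic reads of the readable introns may be exonic.

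The deposited RPKM values imply library totals of 58000000 and 62000000 for H3B-8800 and 64000000 for both DMSO libraries. Intronic reads made up 8.19% and 8.24% of intronic and spliced reads with H3B-8800, against 4.23% and 4.24% with DMSO. Of the 9468 genes tested for spliced reads, 65.5% passed, 32.8% higher and 32.7% lower. Of the 7 mesenchymal-like markers, 4 rose (FN1, CD44, SPARC and EGFR), VIM and AXL fell and ZEB1 did not pass, at a median log2 change of 0.45. Their sum, most of it VIM, was 5570 and 5360 CPM (spliced reads scaled to equal library size, here by TMM) with H3B-8800 and 6444 and 6351 CPM with DMSO. The 8 luminal and hormone receptor markers summed to 202 and 202 CPM with H3B-8800 and 235 and 242 CPM with DMSO. Most of this was KRT8, at 163 and 166 CPM with H3B-8800 and 193 and 201 CPM with DMSO. ERBB2 had 33 and 31 CPM with H3B-8800 and 39 and 37 CPM with DMSO. ESR1 and PGR had no spliced read in any library. Of the markers of other cells, ALB had no read and PECAM1 had 57 and 33 spliced reads with H3B-8800, against 38 and 27 with DMSO. The part of any shift in these markers in the results below was not tested.

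Spliced reads of the U5 and tri-snRNP genes moved in both directions. EFTUD2 fell most, to 2.49-fold lower with H3B-8800 than with DMSO. SNRNP200, PRPF4, TXNL4A and SNRNP40 fell less, and DDX23, PRPF6 and PRPF3 rose. All 8 genes passed, 3 higher and 5 lower, with a median log2 change of -0.18, against 0.01 over all genes. The members are well-read genes: among the 1387 genes with at least as many reads as the least-read member, 84.3% passed, 45.2% higher and 39.1% lower, so that a call is the usual outcome at this depth. In bulk RNA, less RNA per cell and fewer cells that carry it cannot be told apart. The values are shares of the spliced reads of a library, not amounts per cell. With library totals in place of TMM the median of all genes moved to -0.16, and the same 3 members passed higher and the same 5 lower.

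**Figure D1:**
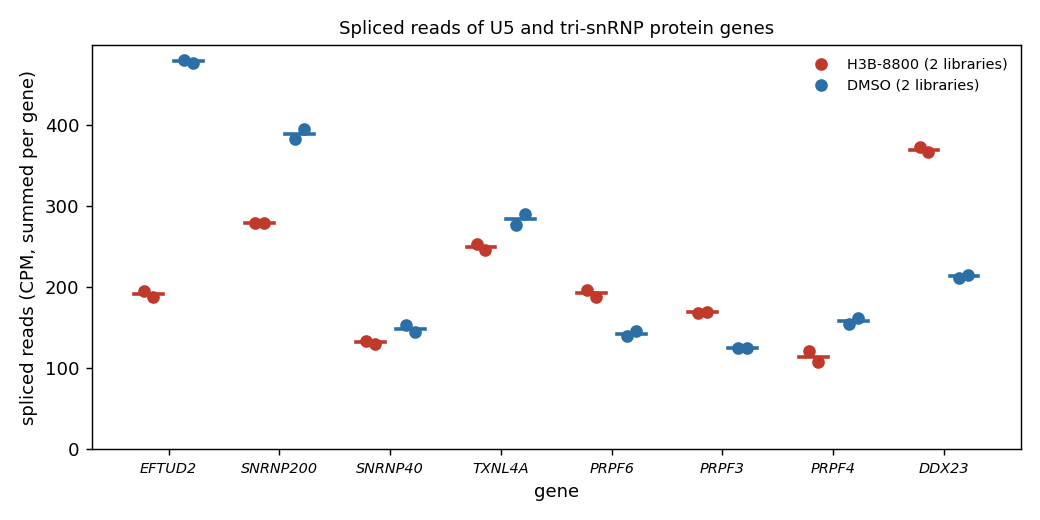
Spliced reads per gene (CPM, TMM-scaled, summed over the listed introns) on a linear axis from 0. Each point is a library, with H3B-8800 left of DMSO for each gene, and the line is the group mean. The groups do not overlap for any of the 8 genes. The share of all genes without overlap was not computed, so non-overlap of these genes, here or in the text, does not set them apart. Over 66136 introns of all genes, among which the reads of a gene are split, it was 71.4%. Among the 1387 genes read at least as well as the least-read member, 84.3% passed the test. EFTUD2 at 192 against 479 CPM stands furthest apart.

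EFTUD2 (NM_001142605, minus strand, listed introns at chr17:44851370-44886584) had 2241 and 2334 spliced reads with H3B-8800, against 6910 and 6854 with DMSO. Scaled, these were 196 and 188 CPM with H3B-8800, against 481 and 477 CPM with DMSO. Both treated libraries lay below both controls by far more than the gap between replicates. The mean of the H3B-8800 libraries was 192 ± 5.63 CPM and that of the DMSO libraries 479 ± 2.66 CPM (SD, n = 2 each). The log2 change was -1.32 (SE 0.048, edgeR adjusted p = 3.43e-10). In the order of all 9468 genes from the deepest fall upwards, EFTUD2 was 570th. SNRNP200 (NM_014014, minus strand, chr2:96275156-96305392) had 279 and 280 CPM with H3B-8800, against 383 and 396 CPM with DMSO. Its groups did not overlap, and its log2 change was -0.48 (SE 0.046, edgeR adjusted p = 9.75e-07). The helicase and the GTPase that regulates it thus both fell, EFTUD2 by the larger amount.

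TXNL4A (NM_001305563, minus strand) was represented by 1 of the 3 introns of its transcript. It had 254 and 245 CPM with H3B-8800, against 277 and 291 CPM with DMSO, and a log2 change of -0.18 (SE 0.050, edgeR adjusted p = 0.00578). SNRNP40 (NM_004814, minus strand, chr1:31260122-31296610) had 134 and 131 CPM with H3B-8800, against 153 and 145 CPM with DMSO, and a log2 change of -0.17 (SE 0.060, edgeR adjusted p = 0.0220). Both falls were small, and the groups did not overlap. That of TXNL4A did not pass without H3B-8800 replicate 2 (edgeR adjusted p = 0.0772, range over settings 1.36e-05 to 0.0772). That of SNRNP40 was lost when either H3B-8800 library was left out (edgeR adjusted p = 0.0661 without replicate 1 and 0.114 without replicate 2) and also when DMSO replicate 1 was (0.148), with a range over settings of 1.16e-04 to 0.148.

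PRPF6 (NM_012469, plus strand, chr20:63981317-64032840), the bridge between U5 and U4/U6, had 197 and 188 CPM with H3B-8800, against 139 and 146 CPM with DMSO. It rose 1.35-fold (log2 0.43, SE 0.057, edgeR adjusted p = 1.83e-05). DDX23 (NM_004818, minus strand, chr12:48830693-48852083) had 4262 and 4555 spliced reads with H3B-8800, against 3047 and 3091 with DMSO, or 373 and 367 CPM against 212 and 215 CPM. It rose 1.73-fold (log2 0.79, SE 0.047, edgeR adjusted p = 1.34e-08), the largest rise among the 8 genes.

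The U4/U6 proteins PRPF3 and PRPF4, which bind each other in the particle, moved in opposite directions. PRPF3 (NM_004698, plus strand, chr1:150321593-150352832) had 169 and 170 CPM with H3B-8800, against 126 and 125 CPM with DMSO, a log2 change of 0.43 (SE 0.057, edgeR adjusted p = 1.67e-05). PRPF4 (NM_001244926, plus strand, chr9:113276726-113291466) had 121 and 108 CPM with H3B-8800, against 155 and 162 CPM with DMSO, a log2 change of -0.47 (SE 0.068, edgeR adjusted p = 4.28e-05). In both genes the groups did not overlap.

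The change in a gene was shared by most of its introns, except in SNRNP40, and TXNL4A had only 1 listed intron. Reads over several introns enter each of them, so the introns of a gene are not independent. Groups did not overlap in spliced CPM at 119 of the 141 introns, 43 higher and 76 lower with H3B-8800. Over all genes, 71.4% of 66136 introns did not overlap, 33.1% higher and 38.2% lower. All 24 listed introns of EFTUD2 were lower, with log2 changes from -1.73 at intron 13 to -1.01 at intron 10 (0.5 added to each count) and a median of -1.34. All 16 introns of DDX23 were higher, from 0.30 at intron 11 to 1.09 at intron 13. In SNRNP200, 36 of 44 introns were lower and 8 overlapped, from -1.27 at intron 29 to 0.16 at intron 8. PRPF6 had 14 of 20 introns higher and 6 overlapping, and PRPF3 had 12 of 15 higher, 1 lower and 2 overlapping. PRPF4 had 10 of 12 lower, and SNRNP40 had 4 of 9 lower, 1 higher and 4 overlapping.

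**Figure D2:**
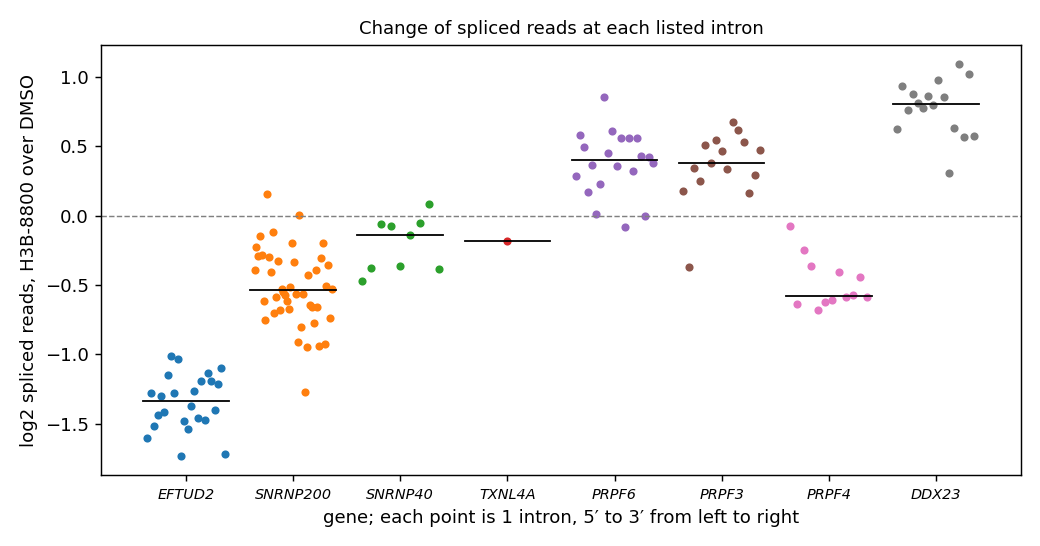
Log2 change of spliced reads (H3B-8800 over DMSO, TMM-scaled, 0.5 added to each count) at each listed intron, in 5′ to 3′ order within a gene, with the median as a line. All points of EFTUD2 lie at or below -1.01 and all points of DDX23 at or above 0.30, while SNRNP200, SNRNP40, PRPF6 and PRPF3 have points on both sides of 0.

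Spliced reads of an intron were next compared with those of the other introns of its gene (edgeR diffSpliceDGE), which asks whether a single junction moved apart from the rest. None of the 140 member introns tested passed, against 0.74% of 65094 introns over all genes, 0.367% higher and 0.373% lower. At an unadjusted p under 0.05, 5 member introns were higher and 5 lower in this edgeR test. Over all 65094 introns, 2779 were higher and 3037 lower at that level. No other tool was run for this test. The smallest adjusted p was 0.0566, at SNRNP200 intron 37 (chr2:96278712-96278808), which had 157 and 193 spliced reads with H3B-8800, against 409 and 402 with DMSO. Its log2 change relative to the gene was -0.46 (SE 0.13). In DDX23 the intron with the smallest p was intron 11, with a log2 change relative to the gene of -0.49 (SE 0.13, edgeR adjusted p = 0.102). In the other genes with more than 1 listed intron, the intron with the smallest p was EFTUD2 intron 13, PRPF3 intron 2, PRPF4 intron 2, PRPF6 intron 6 and SNRNP40 intron 1, with edgeR adjusted p values between 0.274 and 0.605.

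Intronic reads rose in the member genes, including those whose spliced reads fell. Over the 8 genes there were 629 and 708 intronic reads with H3B-8800, against 195 and 241 with DMSO. Per 100 spliced reads this was 3.30 ± 0.147 in the H3B-8800 libraries and 0.781 ± 0.108 in the DMSO libraries (SD, n = 2 each), a 4.22-fold difference. Over all introns of all genes the same measure was 8.95 ± 0.043 with H3B-8800 and 4.42 ± 0.0055 with DMSO, a 2.02-fold difference. The member genes thus held fewer intronic reads per spliced read than the whole table in both groups. Intronic reads passed upwards in all 8 genes, against 58.3% of 7900 genes tested (4.37% passed downwards), at a median log2 change of 1.91 in the members and 1.04 over all genes. No member passed downwards, or had an unadjusted p under 0.05 downwards, in this edgeR test, and no other tool was run for it. The calls on intronic reads, of the 8 members and of all genes, were not kept when either H3B-8800 library was left out. The median log2 change of the members was 1.96 without H3B-8800 replicate 1 and 1.91 without replicate 2. Over all genes it was then 1.03 and 0.98. Without DMSO replicate 1, 6 passed, and without DMSO replicate 2, 8. With TMM in place of library totals 4 passed.

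**Figure D3:**
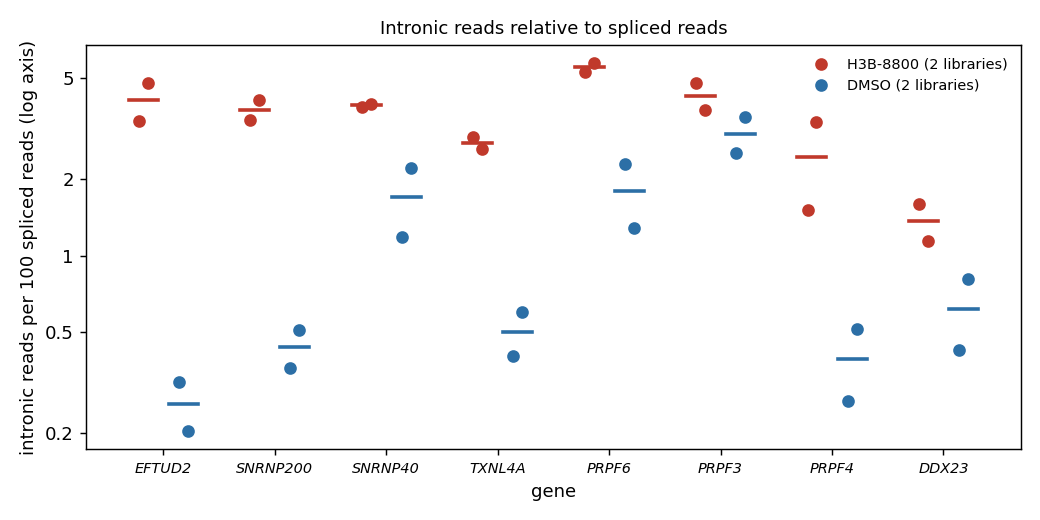
Intronic reads per 100 spliced reads of each gene, on a log axis, with H3B-8800 left of DMSO, a point for each library and the group mean as a line. The widest gap is that of EFTUD2, at 4.09 against 0.261, and the narrowest that of PRPF3, at 4.26 against 3.03.

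EFTUD2 had 76 and 112 intronic reads with H3B-8800, against 22 and 14 with DMSO. Per 100 spliced reads these were 3.39 and 4.80 in H3B-8800 libraries and 0.318 and 0.204 in DMSO libraries. Fewer spliced reads and more intronic reads both entered this 15.7-fold difference, whose log2 change in the ratio model was 3.96 (SE 0.30, edgeR adjusted p = 3.75e-08). Most of these reads lay in introns that overlap an annotated exon. The 11 EFTUD2 introns without one had 10 and 10 intronic reads with H3B-8800, against 2 and 0 with DMSO, too few for the test. EFTUD2 was 121st of 7566 genes from the largest rise downwards. SNRNP200 had 109 and 142 intronic reads with H3B-8800, against 20 and 29 with DMSO, or 3.42 and 4.09 per 100 spliced reads against 0.363 and 0.510. The log2 change of its ratio was 3.10 (SE 0.27, edgeR adjusted p = 1.19e-07) and was 515th of 7566. Its 34 introns without an annotated exon had 25 and 27 intronic reads with H3B-8800, against 4 and 0 with DMSO.

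TXNL4A had 85 and 80 intronic reads with H3B-8800, against 16 and 25 with DMSO, all in its single listed intron, and its ratio rose by 2.46 (log2, SE 0.29, edgeR adjusted p = 2.78e-06). PRPF4 had 21 and 45 intronic reads with H3B-8800, against 6 and 12 with DMSO, and its ratio rose by 2.59 (log2, SE 0.47, edgeR adjusted p = 1.64e-04). The treated libraries of PRPF4 lay far apart, at 1.51 and 3.36 intronic reads per 100 spliced reads, against 0.269 and 0.515 with DMSO. SNRNP40 had 3.86 and 3.95 per 100 with H3B-8800, against 1.18 and 2.21 with DMSO (log2 1.22, SE 0.31, edgeR adjusted p = 0.00263).

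The genes whose spliced reads rose also had more intronic reads. PRPF6 had 119 and 134 intronic reads with H3B-8800, against 46 and 27 with DMSO, and 5.28 and 5.73 per 100 spliced reads against 2.29 and 1.29 (ratio log2 1.63, SE 0.28, edgeR adjusted p = 1.10e-04). DDX23 had 68 and 52 intronic reads with H3B-8800, against 13 and 25 with DMSO, and 1.60 and 1.14 per 100 spliced reads against 0.427 and 0.809. Its ratio change of 1.13 (log2, SE 0.34, edgeR adjusted p = 0.00822) did not pass without H3B-8800 replicate 1 or without DMSO replicate 1 (edgeR adjusted p = 0.0901 and 0.0950, range over settings 0.00277 to 0.0950). In the 5 DDX23 introns without an annotated exon, H3B-8800 libraries had 2 and 0 intronic reads, against 0 in both DMSO libraries. PRPF3 had 92 and 79 intronic reads with H3B-8800, against 46 and 63 with DMSO, and its ratio change of 0.49 (log2, SE 0.27, edgeR adjusted p = 0.118) did not pass. Altogether the ratio passed upwards in 7 of 8 genes, against 65.4% of 7566 genes, with a median log2 change of 2.05 in the members and 1.35 over all genes.

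Of the 141 introns, 48 overlap an annotated exon of another transcript or gene, 1 of them on the opposite strand, so that reads counted as intronic there may be exonic. The 93 introns without one had 2.28 ± 0.223 intronic reads per 100 spliced reads for H3B-8800 and 0.412 ± 0.109 for DMSO (SD, n = 2 each), a 5.52-fold difference. The 48 with one had 4.41 ± 0.0615 with H3B-8800 and 1.20 ± 0.355 with DMSO, 3.68-fold. Over all genes, introns without an annotated exon had 5.57 ± 0.0577 with H3B-8800 and 2.13 ± 0.0253 with DMSO, 2.61-fold. The 38 member introns of up to 300 bases had 0.368 ± 0.113 with H3B-8800 and 0.188 ± 0.0489 with DMSO, 1.96-fold. The 103 longer ones had 4.16 ± 0.143 with H3B-8800 and 0.939 ± 0.121 with DMSO, 4.43-fold. A longer intron offers more bases to be read, so the level is not comparable between the length classes. The length classes were not computed over all genes.

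Intronic reads were unevenly placed. No library had an intronic read in 51 of the 141 introns, among them 24 of the 44 in SNRNP200, 10 of the 24 in EFTUD2 and 9 of the 20 in PRPF6. The share of such introns over all genes was not computed. A count of 0 allows up to 3 reads per library by counting error alone. In 12 introns both H3B-8800 libraries and neither DMSO library had intronic reads, against 4.31% of all introns. The best-read of these 12 was PRPF6 intron 9 (chr20:64001240-64010199), with 14 and 10 intronic reads with H3B-8800, followed by SNRNP200 intron 14 (chr2:96293510-96295487), with 11 and 5. Both were named after their values were seen. Intronic reads scaled by library total did not overlap between groups at 39 introns that were higher with H3B-8800, against 16.5% of all introns, and at 1 that was lower, against 3.03%. These shares of all introns are over 142206 introns, of which 66136 averaged at least 10 spliced reads. All 141 member introns did. The shares among well-read introns were not computed, so these counts do not set the members apart. Only 12 member introns averaged 10 or more intronic and as many spliced reads and so entered the ratio test. The mean was over all libraries, so an intron could enter mainly through 1 group. DMSO libraries averaged under 10 intronic reads in EFTUD2 introns 10, 14 and 22, PRPF6 intron 1 and DDX23 intron 11. The same held for PRPF3 intron 14 and SNRNP40 intron 8, and for the H3B-8800 libraries in PRPF3 intron 4. Large changes are thus favoured among the introns tested, including those named below. Of the 12, 8 passed upwards and 1 downwards. Over all genes 59.4% of 9937 introns passed, 56.5% upwards and 2.88% downwards. Intronic reads alone passed upwards in 7 of these 12 and downwards in 1. Over all genes 54.0% of 12013 introns passed, 48.2% upwards and 5.74% downwards. The calls on intronic reads alone, of members and of all introns, were not kept when either H3B-8800 library was left out. The median log2 change of the member introns was 1.64 without H3B-8800 replicate 1 and 1.28 without replicate 2. Over all introns tested it was then 0.99 and 0.94. With TMM 3 members passed upwards.

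**Figure D4:**
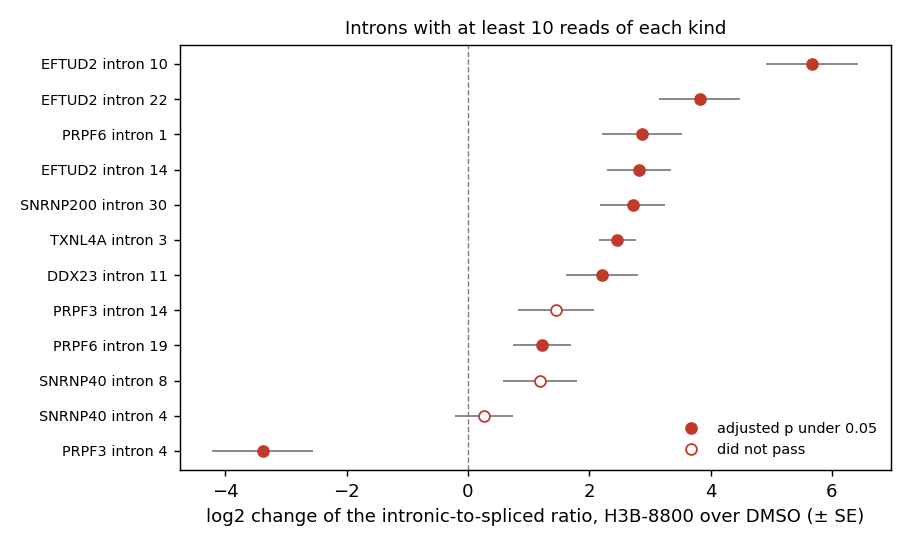
Log2 change of the intronic-to-spliced ratio (H3B-8800 over DMSO) with its SE for the 12 member introns that averaged 10 or more intronic and as many spliced reads. Filled points passed at an adjusted p under 0.05. EFTUD2 intron 10 lies highest at 5.67, and PRPF3 intron 4 is the only one below 0, at -3.39.

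In EFTUD2, intron 10 (chr17:44868351-44872445) had 21 and 26 intronic reads with H3B-8800, against 2 and 0 with DMSO, beside 70 and 79 spliced reads with H3B-8800, against 172 and 191 with DMSO. Its ratio rose by 5.67 (log2, SE 0.76, edgeR adjusted p = 8.92e-05), a value that rests on 2 DMSO reads. Introns 10, 14 and 22 of EFTUD2 all overlap an annotated exon on their own strand, so their intronic reads may be exonic. Without intron 10, EFTUD2 had 3.17 ± 0.905 intronic reads per 100 spliced reads with H3B-8800 and 0.253 ± 0.0613 with DMSO, 12.5-fold. Intron 22 (chr17:44853636-44854268), whose 3′ end is shown above, had 17 and 19 intronic reads with H3B-8800, against 4 and 3 with DMSO, and its ratio rose by 3.82 (log2, SE 0.67, edgeR adjusted p = 5.11e-04). It is retained in an annotated transcript. Read on from the coding exon before it, its sequence meets an in-frame TAG at intron base 174, after 747 of the 937 codons. Intron 14 (chr17:44862907-44863654) had 12 and 29 intronic reads with H3B-8800, against 10 and 9 with DMSO. Its ratio rose by 2.82 (log2, SE 0.53, edgeR adjusted p = 8.06e-04), but its intronic reads alone did not pass (log2 1.18, edgeR adjusted p = 0.112), and its spliced reads were 104 and 108 in H3B-8800 libraries, against 341 and 374 in DMSO libraries.

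In SNRNP200, intron 30 (chr2:96284586-96285179) held 40.2% of the gene's intronic reads with H3B-8800. It overlaps an annotated exon on its own strand. It had 35 and 66 intronic reads with H3B-8800, against 10 and 26 with DMSO, beside 31 and 39 spliced reads with H3B-8800, against 78 and 85 with DMSO. Its ratio rose by 2.71 (log2, SE 0.54, edgeR adjusted p = 0.00114). With H3B-8800 this intron had more intronic than spliced reads in both libraries. An in-frame TGA begins at its base 4, after 1388 of 2136 codons. The other introns of SNRNP200 together had 74 and 76 intronic reads with H3B-8800, against 10 and 3 with DMSO, which is 2.28 ± 0.0917 per 100 spliced reads against 0.119 ± 0.0923, or 19.2-fold.

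PRPF6 intron 1 (chr20:63981317-63983046) had 30 and 29 intronic reads with H3B-8800, against 6 and 2 with DMSO, and its ratio rose by 2.87 (log2, SE 0.66, edgeR adjusted p = 0.00298). Intron 19 of PRPF6 (chr20:64029492-64031917) had 55 and 75 intronic reads with H3B-8800, against 29 and 21 with DMSO, the highest DMSO sum of any member intron. Its ratio change of 1.23 (log2, SE 0.48, edgeR adjusted p = 0.0421) was lost under several other settings, with edgeR adjusted p values from 0.0416 to 0.293 over all settings. Neither intron overlaps an annotated exon. Without intron 19, PRPF6 had 2.77 ± 0.252 intronic reads per 100 spliced reads with H3B-8800 and 0.586 ± 0.410 with DMSO, 4.73-fold in place of 3.07-fold.

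DDX23 intron 11 (chr12:48834498-48836120), which also overlaps an annotated exon on its own strand, had 34 and 19 intronic reads with H3B-8800, against 4 and 7 with DMSO. It held 44.2% of the gene's intronic reads with H3B-8800, and it was also the intron of DDX23 whose spliced reads rose least. Its ratio rose by 2.20 (log2, SE 0.59, edgeR adjusted p = 0.00726), a call lost without H3B-8800 replicate 1 (edgeR adjusted p = 0.0814, range over settings 0.00726 to 0.0814). Without this intron, DDX23 had 34 and 33 intronic reads with H3B-8800, against 9 and 18 with DMSO, and the difference per 100 spliced reads was 1.71-fold. TXNL4A intron 3 (chr18:79973857-79977597), which overlaps an annotated exon, had 2904 and 3047 spliced reads with H3B-8800, against 3979 and 4178 with DMSO, and its ratio rose by 2.46 (log2, SE 0.30, edgeR adjusted p = 4.62e-05). PRPF4 had no intron with a mean of 10 intronic reads, and its best-read, intron 7 (chr9:113284390-113286231), had 9 and 21 in H3B-8800 libraries, against 2 and 3 in DMSO libraries.

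PRPF3 intron 4 (chr1:150328467-150332683) was the exception among the 12 member introns in the ratio test. It had 4 and 0 intronic reads with H3B-8800, against 15 and 31 with DMSO, while its spliced reads were 126 and 152 in H3B-8800 libraries, against 134 and 148 in DMSO libraries. Its ratio fell by 3.39 on the log2 scale (SE 0.83, edgeR adjusted p = 0.00415), and its intronic reads fell by 3.34 (edgeR adjusted p = 0.0118). The intron overlaps an annotated exon, and the ratio call was lost without H3B-8800 replicate 2 (edgeR adjusted p = 0.0549, range over settings 0.00404 to 0.0549). The remaining introns of PRPF3 had 88 and 79 intronic reads with H3B-8800, against 31 and 32 with DMSO, or 4.46 ± 0.598 per 100 spliced reads against 1.90 ± 0.0604, 2.35-fold. In the fit without introns that overlap an annotated exon, the ratio of PRPF3 passed, at a log2 change of 1.35 (edgeR adjusted p = 0.0166, range over settings 0.0166 to 0.463). PRPF3 intron 14, SNRNP40 intron 8 and SNRNP40 intron 4 did not pass, with log2 ratio changes of 1.45, 1.18 and 0.26 (edgeR adjusted p = 0.0613, 0.112 and 0.659).

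Other proteins of the particle were read from lists chosen by function. Their counts stand against 65.5% of all genes tested for spliced reads that passed, 32.8% higher and 32.7% lower, and a call is more frequent among well-read genes. Of 9 further tri-snRNP and U4/U6 proteins, spliced reads of 4 rose, 3 fell and 2 did not pass, at a median log2 change of 0.17. SNRNP27, a tri-snRNP protein, rose by 0.69 (log2, SE 0.07), and USP39, needed to keep the tri-snRNP on the spliceosome, rose by 0.28 (SE 0.06). SART1, called Snu66 in yeast, fell by 0.39 (SE 0.05). With library totals in place of TMM, 1 of the 9 passed higher and 3 lower, at a median of 0.00.

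Of the Sm proteins, which form the ring on U1, U2, U4 and U5, 7 of 8 were analysed. Spliced reads of 6 rose and 1 did not pass, at a median of 0.18, with SNRPE at 0.47, SNRPB at 0.43 and SNRPD1 at 0.33 (log2). Under library totals 3 of the 7 passed higher, at a median of 0.01. The LSm2-8 proteins bind the end of U6, and 6 of 7 were analysed: 2 rose, 3 fell and 1 did not pass. LSM7 fell by 0.85 (log2, SE 0.07) and LSM8 by 0.72 (SE 0.06), while LSM3 rose by 0.51 (SE 0.05). Under library totals 1 of the 6 passed higher and 3 lower, and the median was -0.25 in place of -0.08.

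Of 17 assembly factors 15 were tested, and 3 rose, 6 fell and 6 did not pass. Under library totals 3 passed higher and 8 lower, and the median was -0.24 in place of -0.06. RUVBL2, an ATPase of the R2TP chaperone complex that works in U5 assembly, had 2340 and 2724 spliced reads with H3B-8800, against 7276 and 7421 with DMSO. Its log2 change of -1.27 (SE 0.05, edgeR adjusted p = 5.23e-10) lies beside the -1.32 of EFTUD2. WDR77, the partner of the arginine methyltransferase PRMT5 that modifies Sm proteins, fell by 1.26 (log2, SE 0.07), and PIH1D1, another subunit of R2TP, fell by 0.78 (SE 0.06). The intronic-to-spliced ratio rose in 5 of 7 tested tri-snRNP and U4/U6 genes, 2 of 5 Sm genes, 5 of 5 LSm genes and 8 of 11 assembly factors, against 65.4% of all 7566 genes tested.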

How the data were processed

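Each library's file lists the same introns with 2 read counts and an RPKM value, deposited by the authors without a header. HISAT2 2.0.4 is named in the submitters' processing notes with the builds hg38 and mm10; the counting method and its use of strand are not given in the sources used here. Per the labels, libraries were stranded and polyA-selected. The deposited RPKM values equal the first count divided by intron length and a library total, which was recovered. Of 142224 introns, 99.9% are GENCODE 29 introns once both ends move 1 base inward, and 18 without a second count were left out. Spliced reads were taken as the second deposited count minus the first, so reads over several introns enter each of them.

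Counts were tested with edgeR 4.0.16 (R 4.3.3), 2 libraries against 2. Spliced reads per gene used TMM and a mean of at least 1 CPM. Intronic reads used library totals, and the ratio used an interaction with a term per library, both with means of at least 10 reads. SEs were approximated from F statistics. Alternatives were DESeq2 1.42.0, other scalings and filters, a replicate block, exon-free introns and leaving out each library. On simulated data the intron-level tests missed many changed introns, so their criterion was reset to the size of the estimates and the rate of false calls, and an intron that did not pass is not shown to be unchanged. Values without a single intron were chosen after seeing the data.

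Even numbers made up 70.9% to 72.3% of non-zero intronic counts, so mates were probably both counted and precision is lower than the counts imply. Replicates were not duplicates (chi-square per degree of freedom 3.80 and 3.52). Members, lists and tests were chosen with earlier results of these data known. Named introns were those with the smallest p per gene in the ratio and relative tests, all that passed downwards, the largest rises, and the one with the highest DMSO sum of intronic reads. From each list the 3 genes with the smallest adjusted p are named. PRPF8, PRPF31, SNRPN, LSM2, ZNHIT2, SMN1 and PTPRC were not analysed here.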

Additional observations from a re-analysis of the deposited data

How the results depend on the processing

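Of 376 single values of member genes and introns under an alternative, 320 kept their side of the threshold. Of the rest, 49 no longer passed, 5 newly passed and 2 reversed. A change of direction was counted as reversed only where either fit passed, so the 320 can include sign changes between fits that did not pass. The reversals were intronic reads of PRPF3 (-0.28, edgeR adjusted p = 0.442) and SNRNP40 (-0.16, 0.733) with TMM in place of library totals, which centres a general rise near 0. For spliced reads, members lower numbered between 3 and 5 when a library was left out.

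For intronic reads per gene, leaving out a library gave between 0 and 4351 genes higher, 0 and 306 lower and 0 and 8 members higher. With TMM 1597 genes were higher and 1587 lower, with 4 members higher. Without introns that overlap an exon these were 2408, 84 and 4 of 4 members tested, and for the ratio 2534 higher, 45 lower and 4 members.

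For intronic reads per intron, leaving out a library gave between 0 and 6164 introns higher, 0 and 602 lower, 0 and 13 members higher and 0 and 1 lower. With TMM 2566 introns were higher and 2322 lower, with 3 members higher. At a mean of at least 3 reads 17 members were higher. The TMM fit used the same introns and libraries and differed in scaling alone, while the others used fewer libraries or more introns. The cause was not tested otherwise.

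For the ratio per intron, leaving out a library gave between 3691 and 5497 introns higher, 159 and 216 lower and 0 and 1 members lower. At a mean of at least 3 reads 19 members were higher. For spliced reads relative to the gene, leaving out a library gave between 73 and 124 introns higher and 46 and 125 lower.

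Replicate numbers did not pair the libraries: deviations of same-numbered libraries correlated at 0.0806 for spliced and 0.00998 for intronic reads. With a replicate block PRPF6 intron 19 no longer passed (edgeR adjusted p = 0.0697).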
